A study of Mus musculus with 2 samples.

Results

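The oxidative phosphorylation genes encode the nuclear part of the mitochondrial respiratory chain and of ATP synthase. They were chosen by symbol from the protein-coding genes on the 21 nuclear chromosomes: symbols starting with Nduf, Uqcr, Cox4, Cox5, Cox6, Cox7, Cox8 or Atp5, and Sdh followed by a, b, c or d alone. This gave 94 of 21853 protein-coding genes, with 93 different symbols, because Atp5o is the name of 2 gene records. Around them lay 126 of the 29415 accessible regions of the study, of which 89 were promoter regions and 37 were distal regions.

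Accessibility was measured by ATAC-seq, in which a transposase inserts adapters into DNA that is not covered by nucleosomes, in inflammation-experienced regulatory T (Treg) cells. The cells came from 1 adult male mouse, 6 months old, of the strain Foxp3CreERT2 x Rosa26YFP, in which the Foxp3 gene drives a drug-inducible Cre recombinase that switches on a fluorescent reporter. The labels name a bone marrow hematopoietic cell as the origin, and they state neither the kind of inflammation nor the gate used for isolation. Both samples (2 in all) were technical repeats from the same donor, counted by the labels as 1 biological replicate, and formed 1 group, so every value below describes these cells and no condition could be compared with another.

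Electrons from NADH enter the respiratory chain at complex I (NADH dehydrogenase) and electrons from succinate at complex II (succinate dehydrogenase). They pass through complex III (cytochrome bc1) to complex IV (cytochrome c oxidase), and complex V (ATP synthase) uses the resulting proton gradient to make ATP. Mouse Treg cells are known to rely on mitochondrial respiration, including complex III, for their suppressive function. Several complex IV subunits exist as a widely expressed isoform and an isoform restricted to muscle, testis, lung or hypoxic tissue.

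The identity of the cells was checked with markers. All 8 T cell and Treg markers had a promoter region (Foxp3, Il2ra, Ctla4, Ikzf2, Cd3e, Cd3g, Cd28 and Bcl11b), with a median of 6.5 distal regions besides. None of the 8 markers of B cells, myeloid cells, natural killer cells and erythroid cells had a promoter region or a distal region (among them Cd79a, Ms4a1, Csf1r, Lyz2, Itgax, Ncr1 and Gata1). Library depth is unknown, because the lists carry no read counts. In such bulk data, a region open in fewer cells and a region less open in each cell cannot be told apart. An accessible promoter is also no measure of RNA or protein.

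The promoters of 10 members are shown because the results below turn on them: the highest fold enrichment in each complex among members with an entry, isoforms of complex IV, and the highest members with the NRF1 or CRE letters. Sequences are from RefSeq on GRCm38.p6, 250 bp before to 50 bp after the RefSeq start, 5′ to 3′ on the coding strand. An entry was found for 74 of the 94 members, and Cox6a2 had none. Capitals mark matches, on either strand, to 10 short consensus sequences, each searched as fixed letters: NRF1 (GCGCATGC), YY1 (AAGATGGC), ETS (CCGGAAGT), SP/KLF (GGGGCGGGG), CRE (TGACGTCA), NFY (CCAATC), ERR (TCAAGGTCA), AP-1 (TGANTCA), RUNX (TGTGGTT) and ZNF143 (ACTACAATT). Matches that overlapped another match were kept.
Ndufa3: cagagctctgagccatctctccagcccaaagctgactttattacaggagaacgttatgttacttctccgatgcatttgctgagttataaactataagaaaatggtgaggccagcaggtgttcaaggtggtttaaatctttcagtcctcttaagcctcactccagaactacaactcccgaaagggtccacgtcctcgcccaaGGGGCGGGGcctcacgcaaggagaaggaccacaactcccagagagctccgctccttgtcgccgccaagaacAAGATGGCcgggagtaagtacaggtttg
Sdhd: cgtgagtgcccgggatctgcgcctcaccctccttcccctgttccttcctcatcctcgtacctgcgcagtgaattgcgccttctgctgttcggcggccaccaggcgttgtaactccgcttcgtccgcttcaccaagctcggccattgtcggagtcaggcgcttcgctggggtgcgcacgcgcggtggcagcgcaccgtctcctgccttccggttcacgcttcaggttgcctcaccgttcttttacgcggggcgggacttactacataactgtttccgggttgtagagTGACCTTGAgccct
Uqcr10: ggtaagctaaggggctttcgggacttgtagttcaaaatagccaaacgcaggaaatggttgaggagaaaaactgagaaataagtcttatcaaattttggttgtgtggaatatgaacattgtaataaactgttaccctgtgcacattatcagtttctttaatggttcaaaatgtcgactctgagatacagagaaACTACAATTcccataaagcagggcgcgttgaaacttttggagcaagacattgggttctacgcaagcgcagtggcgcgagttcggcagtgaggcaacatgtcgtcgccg
Cox8a: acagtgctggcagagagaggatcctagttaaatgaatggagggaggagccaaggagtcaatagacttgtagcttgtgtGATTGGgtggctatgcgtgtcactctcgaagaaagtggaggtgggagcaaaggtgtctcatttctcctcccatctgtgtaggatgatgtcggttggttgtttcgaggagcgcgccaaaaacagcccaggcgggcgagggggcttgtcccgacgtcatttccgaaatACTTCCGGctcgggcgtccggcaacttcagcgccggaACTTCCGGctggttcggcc
Atp5c1: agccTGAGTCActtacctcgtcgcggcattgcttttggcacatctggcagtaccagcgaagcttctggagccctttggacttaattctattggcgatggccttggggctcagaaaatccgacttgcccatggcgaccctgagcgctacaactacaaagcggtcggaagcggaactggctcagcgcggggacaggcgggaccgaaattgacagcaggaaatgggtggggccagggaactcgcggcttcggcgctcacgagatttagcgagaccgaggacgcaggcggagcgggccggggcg
Cox6a1: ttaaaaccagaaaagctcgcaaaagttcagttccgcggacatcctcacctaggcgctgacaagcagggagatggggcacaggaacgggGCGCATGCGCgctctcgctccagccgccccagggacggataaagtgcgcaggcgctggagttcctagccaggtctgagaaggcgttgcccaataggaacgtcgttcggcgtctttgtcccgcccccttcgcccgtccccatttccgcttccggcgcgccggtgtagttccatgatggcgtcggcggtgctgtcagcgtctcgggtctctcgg
Cox7a1: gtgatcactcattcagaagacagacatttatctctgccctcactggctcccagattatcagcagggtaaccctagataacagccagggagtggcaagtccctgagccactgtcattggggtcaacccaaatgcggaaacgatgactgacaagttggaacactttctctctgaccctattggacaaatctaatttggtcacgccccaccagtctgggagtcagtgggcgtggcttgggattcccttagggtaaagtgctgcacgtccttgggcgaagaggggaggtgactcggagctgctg
Cox7a2: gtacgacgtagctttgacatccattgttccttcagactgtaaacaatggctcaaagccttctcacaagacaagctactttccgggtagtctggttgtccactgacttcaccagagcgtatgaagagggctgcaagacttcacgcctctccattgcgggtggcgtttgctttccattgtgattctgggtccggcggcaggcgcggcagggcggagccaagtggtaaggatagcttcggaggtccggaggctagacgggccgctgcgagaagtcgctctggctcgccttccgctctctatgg
Ndufa6: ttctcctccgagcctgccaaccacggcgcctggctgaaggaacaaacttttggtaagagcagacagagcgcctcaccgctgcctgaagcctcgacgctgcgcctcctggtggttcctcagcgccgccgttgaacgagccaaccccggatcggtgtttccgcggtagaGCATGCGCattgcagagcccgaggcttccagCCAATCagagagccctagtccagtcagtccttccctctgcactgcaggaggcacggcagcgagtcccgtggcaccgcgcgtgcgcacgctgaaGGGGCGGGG
Ndufb2: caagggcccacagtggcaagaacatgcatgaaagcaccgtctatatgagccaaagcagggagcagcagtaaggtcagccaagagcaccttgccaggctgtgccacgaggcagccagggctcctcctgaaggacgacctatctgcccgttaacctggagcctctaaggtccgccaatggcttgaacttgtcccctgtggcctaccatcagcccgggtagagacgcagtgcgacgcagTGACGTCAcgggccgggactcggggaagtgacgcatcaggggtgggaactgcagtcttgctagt
In these windows, Ndufa3 held SP/KLF letters upstream and YY1 letters after the start, Sdhd held ERR letters, Uqcr10 held ZNF143 letters, and Cox8a held 2 ETS matches and 1 NFY match. Atp5c1 held AP-1 letters at the far upstream end, Cox6a1 held NRF1 letters on both strands in overlapping matches, Ndufa6 held NRF1, NFY and SP/KLF letters, and Ndufb2 held CRE letters. Cox7a1 and Cox7a2 held none of the letters. The RefSeq starts can differ by some bases from the coding starts used for the motif counts below, and the SP/KLF letters of Ndufa6 fall outside its window there. The windows are at chr7:3617123-3617422 for Ndufa3 and chr9:50603800-50604099 for Sdhd, with Uqcr10 at chr11:4704295-4704594 and Cox8a at chr19:7217567-7217866. Those of Atp5c1 and Cox6a1 are at chr2:10080461-10080760 and chr5:115348909-115349208. The pair Cox7a1 and Cox7a2 lies at chr7:30183921-30184220 and chr9:79759804-79760103, and Ndufa6 and Ndufb2 lie at chr15:82354242-82354541 and chr6:39592315-39592614. Ndufa3, Cox7a1 and Ndufb2 are on the plus strand and the other 7 on the minus strand.

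Nearly all members had an accessible promoter. A promoter region is a region of the IDR-thresholded list (peaks that passed the authors' irreproducible discovery rate) that overlaps the 1000 bp on either side of a protein-coding transcript start. Such a region was present at 86 of 94 members, or 91.5% (95% Clopper-Pearson interval 83.9 to 96.3, counting error only), against 49.7% of all protein-coding genes. All 36 subunit genes of complex I had one, as did all 8 complex I assembly factors, all 4 genes of complex II and all 8 genes of complex III. In complex V the count was 17 of 18, and in complex IV it was 13 of 20, or 65.0%. Members share a pathway and 1 cell sample and are not replicates, so no test was made on these counts.

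The 8 members without a promoter region were 7 tissue-restricted isoforms and the second gene record named Atp5o. Those isoforms were Cox4i2 (lung and hypoxia), Cox6a2 and Cox8b (heart and skeletal muscle), Cox6b2, Cox7b2 and Cox8c (testis) and Ndufa4l2, a hypoxia-induced relative of Ndufa4. The second Atp5o record (ENSMUSG00000116933.1, chromosome 16, 91684398 to 91926982) overlaps the Itsn1 gene. It starts inside the main Atp5o record (91925214 to 91931687, also on the minus strand), downstream of the start of that record. The promoter region of the main record had a fold of 19.1. Cox6b2 had a region at its start in the 2 wider lists, the pseudoreplicated and the ranked list, with a fold of 6.32 and a −log10 p of 14.7. No other member of the 8 had a promoter region in either of those lists.

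The contrast within complex IV followed the isoform pairs. Of the 8 tissue-restricted isoforms, 1 had a promoter region, against 85 of the 86 other members. Cox7a1, the heart and skeletal muscle form, was the exception: its region was 550 bp wide with 1 summit 26 bp upstream of the start, and its fold of 11.6 stood against 19.5 for its partner Cox7a2. Each of the other restricted isoforms had none, against a fold of 14.7 for Cox4i1 beside Cox4i2, 18.4 for Cox6a1 beside Cox6a2 and 28.2 for Cox6b1 beside Cox6b2. The partner Cox7b of Cox7b2 had 7.66, Cox8a, the partner of both Cox8b and Cox8c, had 29.8, and Ndufa4, the partner of Ndufa4l2, had 16.3. The widely expressed forms thus ranged from the highest promoter fold of all members, at Cox8a, to the second lowest, at Cox7b.

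**Figure D1:**
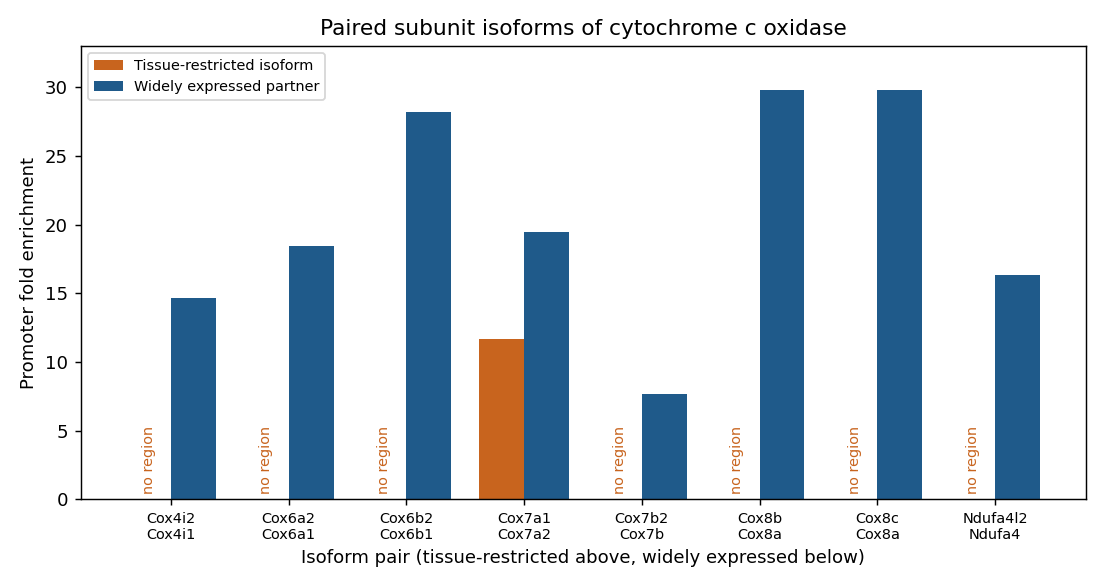
Promoter fold enrichment (vertical axis, a linear ratio) of each tissue-restricted isoform (left bar of a pair) and its widely expressed partner (right bar). Of the restricted isoforms, only Cox7a1 had a promoter region, with a fold of 11.6, against 19.5 for Cox7a2.

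CpG content differed within most of these isoform pairs as well. The CpG observed over expected ratio, which is high in unmethylated CpG island promoters, was taken from 500 bp on either side of the start. Its median was 0.328 for the 8 tissue-restricted isoforms, against 0.739 for the 86 other members. Cox7a1 had 0.277, against 0.804 for Cox7a2, so the open restricted promoter was poor in CpG. Cox7b, with the low fold, also had a low ratio of 0.482 among the widely expressed forms. That was close to the 0.468 of Cox7b2, which had no promoter region. Ratio and fold did not go together throughout: Ndufa3 had 0.502 with a fold of 27.2, and Cox4i1 had 0.965 with a fold of 14.7. Over all members the median was 0.724, against 0.579 for all protein-coding genes and 0.749 for the genes with a promoter region.

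The fold enrichment of a peak over background is the authors' own value, and the fold of the highest promoter region was taken for each gene. Its median over the 86 members was 19.2 (quartiles 16.0 and 22.4, range 5.35 to 29.8), against 16.4 (quartiles 12.4 and 20.5) over the 10861 genes with a promoter region. The fold of 63 members, or 73.3%, lay above that overall median. A fold over 20 was found at 40.7% of the members, against 27.6% of all genes with a promoter region, and a fold under 10 at 4.65%, against 12.4%. The medians of the groups were close: 19.2 in complex I, 18.2 in its assembly factors, 19.8 in complex II, 20.1 in complex III, 18.4 in complex IV and 18.7 in complex V.

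**Figure D2:**
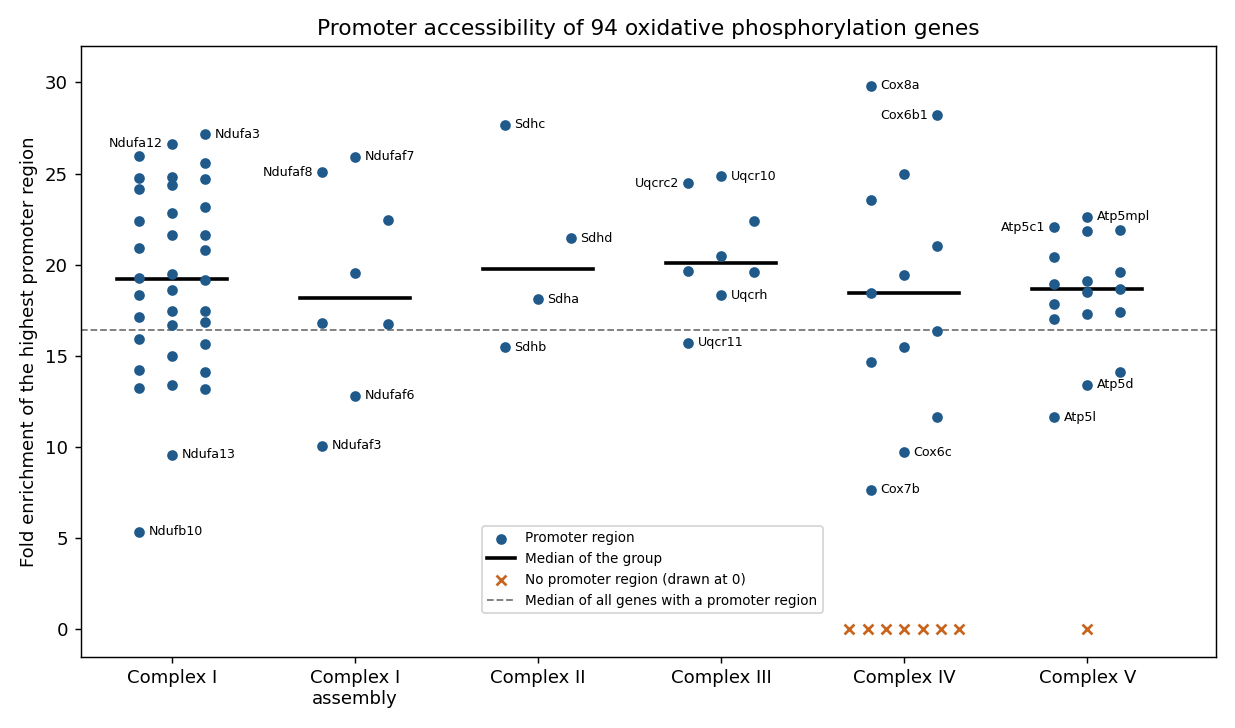
Fold enrichment of the highest promoter region (vertical axis, a linear ratio) of each member, by complex. Points are genes, black lines are group medians between 18.2 and 20.1, the dashed line is the median of 16.4 over all genes with a promoter region, and crosses at 0 are the 8 members without a region.

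Complex I collects electrons from NADH. Its highest promoter was that of Ndufa3, an accessory subunit, with a fold of 27.2 in a region of 896 bp. Ndufa12, another accessory subunit, followed with 26.6, and Ndufv1, the flavoprotein subunit that oxidises NADH, with 26.0. These 3 folds lay at percentiles 97.4, 96.6 and 95.4 of all genes with a promoter region. At the other end, the accessory subunit gene Ndufb10 had 5.35, at percentile 0.746, although its summit lay 23 bp upstream of the start. Ndufa13, also known as Grim-19, had 9.57 in a region whose summit lay 901 bp after the start and which also overlapped the promoter windows of Tssk6 and Yjefn3. A second region of Ndufa13 had a fold of 8.49 with its summit 733 bp upstream of the nearest start.

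Among the complex I assembly factors, Ndufaf7, a methyltransferase that modifies a complex I subunit, had 25.9. Ndufaf8, which stabilises Ndufaf5, had 25.1, and Ndufaf5, a hydroxylase that acts on Ndufs7, had 22.5. The lowest were Ndufaf3 with 10.1 and Ndufaf6 with 12.8, both factors of early assembly steps. The assembly factors thus spanned 10.1 to 25.9, inside the range of the complex I subunits.

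Complex II has 4 subunits and all 4 genes were open. Sdhc, a membrane anchor, had the highest fold with 27.7, and Sdhd, the other anchor, had 21.5. The catalytic subunits were lower, with 18.1 for Sdha, the flavoprotein, and 15.5 for Sdhb, the iron-sulfur protein. Sdhb was the complex II gene below the overall median of 16.4.

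Complex III passes electrons to cytochrome c. Its highest genes were Uqcr10, a small accessory subunit, with 24.8, Uqcrc2, a core protein, with 24.5, and Uqcrfs1, the Rieske iron-sulfur protein, with 22.4. The lowest were Uqcr11, another small subunit, with 15.7 and Uqcrh, the hinge protein, with 18.3. Of its 8 genes, 7 lay above the overall median. The fold of Uqcr10 is that of a summit 307 bp upstream, and the summit nearest to its start had 10.5.

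In complex IV the small nuclear-encoded subunit genes Cox8a with 29.8, Cox6b1 with 28.2 and Cox7c with 25.0 were the highest. Cox7b with 7.66 and Cox6c with 9.72 were the lowest. At the summit nearest to the start, Cox7c had 4.13 and Cox6c had 3.96. Cox8a and Cox6b1 were the highest of all 86 members, at percentiles 99.4 and 98.6 of all genes with a promoter region, and Cox7b stood at percentile 4.16. The 13 open genes of complex IV thus held both the top of the range and, in Cox7b and Cox6c, some of its lowest folds.

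In complex V the highest were Atp5mpl, a small membrane subunit, with 22.6, Atp5c1, the gamma subunit of the rotating stalk, with 22.0, and Atp5k, the e subunit, with 21.9. The lowest were Atp5l, the g subunit, with 11.6 and Atp5d, the delta subunit of the stalk, with 13.4. At the summit nearest to its start, Atp5l had 6.97. Atp5d had a second promoter region with a fold of 8.21.

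Most member promoter regions resembled those of other genes in form. Their median width was 954.5 bp, against 948 bp over all genes with a promoter region, and the median number of summits was 3 in both. A single summit was found at 9 members, or 10.5%, against 16.1%. The highest summit lay within 150 bp of a coding start at 77 of the 86 members, or 89.5%, against 75.6% of all genes with a promoter region. Its median position was 26.5 bp upstream in the members, against 40.0 bp upstream over all genes.

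**Figure D3:**
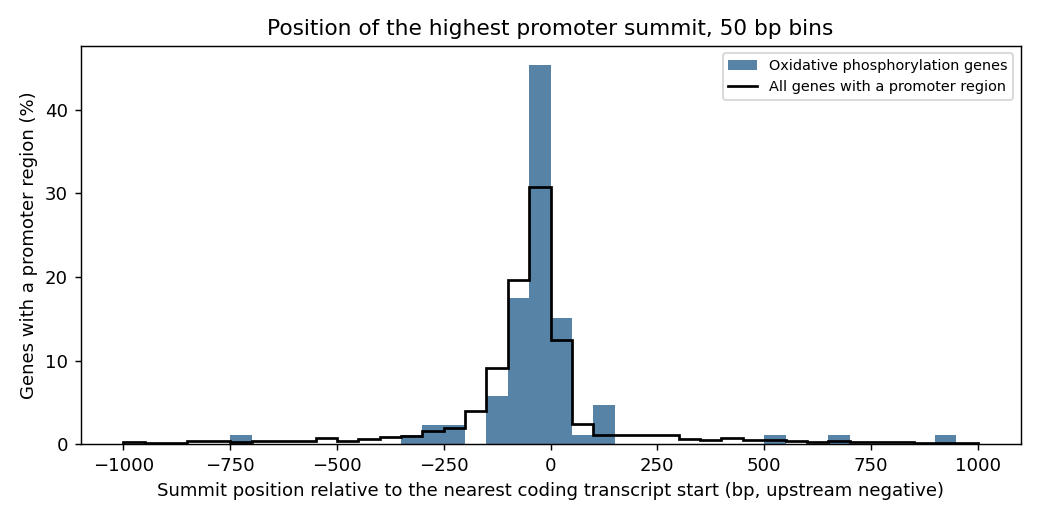
Position of the highest promoter summit relative to the nearest coding start (horizontal axis, bp), as a share of genes per 50 bp (vertical axis), for the members (filled) and all genes with a promoter region (line). The bin of 50 bp before the start holds 45.3% of the members, against 30.8% of all genes.

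The highest summit lay more than 500 bp from the start at 4 members, or 4.65%, against 8.46% of all genes with a promoter region, and in each case the region also overlapped the promoter window of another gene. Beside Ndufa13 these were Ndufa11 (721 bp upstream, shared with Vmac), Atp5f1 (691 bp after the start, shared with Wdr77) and Atp5j (541 bp after the start, shared with Gabpa). At 9 members, or 10.5%, the summit nearest to the start had less than 50% of the fold of the highest summit, against 11.3% of all genes with a promoter region. For example, the nearest summit of Atp5f1 had 2.65, against 18.9 for the highest, and that of Atp5j had 4.25, against 17.4. With the nearest summit in place of the highest, the median over the members was 18.4, against 15.1 over all genes with a promoter region.

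The ranked list gives a −log10 p for each peak in each of the 2 sets that the authors ranked against each other. What the 2 sets were is not given in the sources used here. In 87 of the 89 member promoter regions, or 97.8%, the 2 values lay within 1.5-fold of each other, against 90.4% of all 11184 promoter regions. The medians over the member regions were 133 and 126, against 87.7 and 87.8 over all promoter regions. The lowest −log10 IDR among the member regions was 1.37.

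Many members shared their promoter with a gene on the opposite strand. A coding start of another gene on the other strand lay within 1000 bp of 35 of the 94 members, or 37.2% (27.5 to 47.8), against 11.4% of all protein-coding genes. All 35 had a promoter region, against 2257 of the 2493 head-to-head genes of the whole annotation. Among genes with a promoter region alone, a head-to-head neighbour was present at 40.7% (30.2 to 51.8) of the 86 members, against 20.8% of all such genes. The promoter region itself overlapped the window of another gene at 35 of the 86 members, or 40.7%, against 22.2%. The starts of member and partner were a median of 98 bp apart, against 127 bp over all head-to-head genes, and 25 of the 35 were within 150 bp. The partner start lay upstream of the member start at 29 of the 35. At the other 6 it lay downstream, so that the 5′ ends of the genes overlap.

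By complex, a head-to-head partner was present at 16 of 36 complex I subunit genes, 4 of 8 assembly factors, 3 of 4 complex II genes, 3 of 8 complex III genes and 7 of 18 complex V genes. Complex IV had 2 of 20, at Cox4i1 and Ndufa4. The median fold was 19.5 at the 35 members with a partner, against 18.7 at the 51 open members without one, and both lay above the 16.4 of all genes with a promoter region.

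Among the highest folds at these shared promoters was that of Ndufaf7 with Cebpz, whose starts were 70 bp apart, with 25.9. Ndufaf8 and Tepsin were 197 bp apart, with 25.1, and Uqcr10 and Zmat5 were 336 bp apart, with 24.8. In each of these pairs the region of the member also overlapped the window of the partner. Because 1 region covers both starts, its fold alone cannot be assigned to either gene. At Uqcr10 the highest summit lay 307 bp upstream, toward the Zmat5 start, and the summit nearest to Uqcr10 had 10.5.

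Some partners, picked out after their names were seen, belong to mitochondria or to translation. Sdhd was paired with Timm8b, of the mitochondrial import machinery, 98 bp apart. Ndufs6 and Ndufb5 were paired with the mitochondrial ribosomal genes Mrpl36 and Mrpl47, 29 and 20 bp apart. Ndufa7 was paired with the ribosomal gene Rps28, 10 bp apart, and Ndufs1 with the translation elongation factor gene Eef1b2, 3 bp apart. Atp5j was paired with Gabpa, which encodes the DNA-binding subunit of a factor that activates respiratory genes, 379 bp apart. At Ndufs6, Ndufb5 and Atp5j the partner start lay downstream of the member start.

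Accessible regions away from promoters were found at a minority of members. A distal region is one outside every promoter window whose summit is nearest to a start of the gene, within 100 kb. At least 1 was found at 25 of the 94 members, or 26.6%, against 31.5% of all protein-coding genes, and the mean was 0.394 per member, against 0.740 per gene. The territory nearest to a member was shorter, with a median of 22160.5 bp, against 46412 bp. Per megabase of territory the members had 10.1 distal regions, against 10.1 over all protein-coding genes and 17.0 over the genes with a promoter region. Of the 86 members with a promoter region, 21, or 24.4%, had a distal region, against 44.7% of all genes with a promoter region, whose mean was 1.15. Complex III had 0 distal regions at its 8 genes. In all, 17 members had 1 distal region, 5 had 2 and 3 had at least 3.

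Cox4i2 had the most distal regions, with 4, although it had no promoter region. They lay 11606 to 34620 bp after its start, 2 of them in introns of Bcl2l1, an inhibitor of apoptosis. Atp5j had 3 and Ndufaf6 had 3. Of the 2 regions at Sdhb, both lay in introns of Padi2, and Ndufb6, Cox4i1, Cox7a2l and Atp5mpl had 2 each. Assignment to the nearest start does not show which gene a distal region acts on.

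The highest distal region was 13061 bp upstream of Cox7a2l, a factor of respiratory supercomplexes, between genes at chr17:83526989-83527874, with a fold of 26.0. The next were in introns of the members themselves. One lay 8720 bp after the start of Atp5s, at chr12:69733544-69733840, with 23.0, and the other 8935 bp after the start of Sdha, at chr13:74341090-74341542, with 22.8. Of the 37 distal regions, 20 were intergenic, 14 were in introns and 3 in exons, and 6 of those in introns lay in the member itself. The region of the second Atp5o record, in an exon of Itsn1, also lay within the span of that record. Their median fold was 12.4, against 11.96 over the 16179 distal regions of all genes. Among the 21 members with both kinds, the median was 13.5 for the highest distal region and 19.5 for the promoter region. At 5 of them, Cox7a2l, Atp5s, Sdha, Ndufb6 and Cox4i1, the highest distal region had the greater fold.

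The region nearest outside a promoter window was at Ndufaf6, with a summit 1468 bp upstream and a fold of 4.24. The next was at Ndufa4l2, 1973 bp upstream, with 12.2. A promoter region of Ndufaf6 just inside its window had its summit 885 bp upstream and a fold of 4.43.

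The letters of 10 motifs were searched from 250 bp before to 50 bp after the start of the 86 members with a promoter region and of all genes with one. NRF1 and GABP, an ETS factor, are activators of nuclear genes for respiration, YY1 is a further regulator of them, and ERR is the orphan nuclear receptor family that works with PGC-1 coactivators. NRF1 letters stood in 10 members, or 11.6% (5.72 to 20.3), against 5.78% of all genes with a promoter region. YY1 letters stood in 11 members, or 12.8% (6.56 to 21.7), against 5.36%. Of these 11, 8 were complex I subunit genes, which made up 36 of the 86 members. ETS letters stood in 6 members, or 6.98% (2.60 to 14.6), against 9.72%. ERR letters stood in 2 members, Atp5g3 and Sdhd, or 2.33% (0.283 to 8.15), against 0.258%.

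SP/KLF and NFY letters mark many CpG-rich promoters. SP/KLF letters stood in 10 members, or 11.6% (5.72 to 20.3), against 23.2%, and NFY letters in 15, or 17.4% (10.1 to 27.1), against 22.7%. CRE letters stood in 5 members, or 5.81% (1.91 to 13.0), against 3.97%. Of the letters of T cell factors, AP-1 stood in 5 members, or 5.81% (1.91 to 13.0), against 4.31%, and RUNX in 3, or 3.49% (0.725 to 9.86), against 3.86%. ZNF143 letters stood in 1 member, Uqcr10, or 1.16% (0.0294 to 6.31), against 0.884%. A match is a run of letters and not a bound site. At least 1 of the NRF1, YY1 and ETS letters stood in 25 of the 86 members, or 29.1%, against 19.4% of all genes with a promoter region. The other 61 members held none of them.

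**Figure D4:**
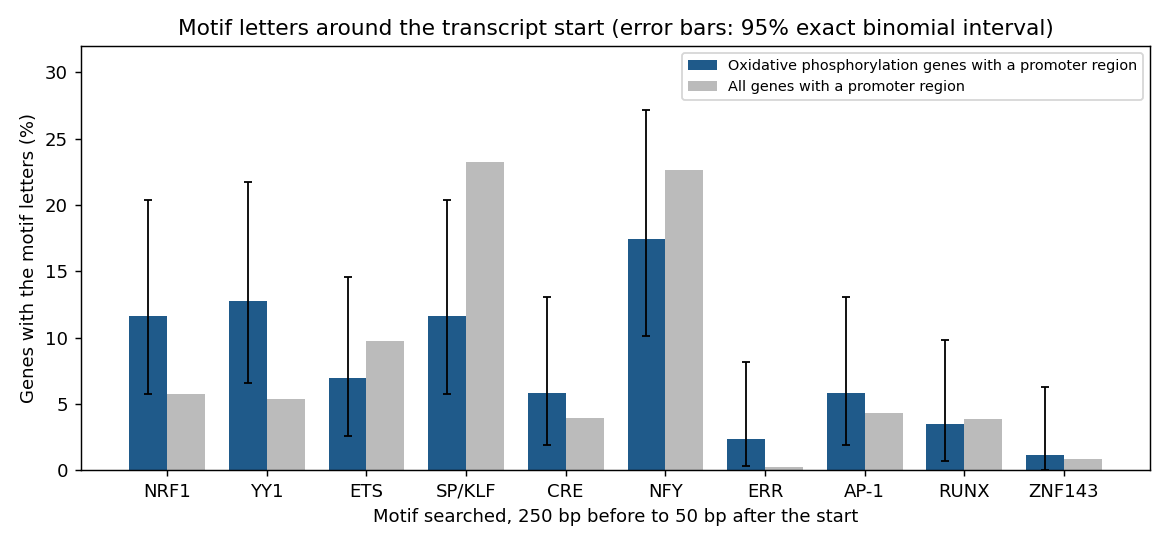
Share of genes whose start window holds each motif (vertical axis, %), for the members with a promoter region (left bars, with 95% Clopper-Pearson intervals) and all genes with a promoter region (right bars). NRF1 stood at 11.6% against 5.78% and YY1 at 12.8% against 5.36%, while SP/KLF stood at 11.6% against 23.2%.

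Whether an interval held the share over all genes depended on the window and on the set of genes or regions compared. The intervals cover counting error only and were not adjusted for the 10 motifs. In the windows above, they lay above it for YY1 and ERR and below it for SP/KLF. Within 100 bp of the summits of promoter regions, NRF1 letters stood at 13.5% (7.17 to 22.4) of member regions, against 4.19% of all promoter regions. YY1 letters stood there at 8.99% (3.96 to 16.9), against 4.03%, and SP/KLF letters at 10.1% (4.73 to 18.3), against 17.1%, so both intervals held the value of all regions. Within 250 bp of the start, NRF1 letters stood in 16.0% (9.22 to 25.0) of the 94 members, against 4.40% of all protein-coding genes, and YY1 letters in 20.2% (12.6 to 29.8), against 5.10%. SP/KLF letters stood there in 14.9% (8.39 to 23.7), against 18.6%. Over all 94 members in the first window, ERR letters stood in 2.13% (0.259 to 7.48), against 0.403% of all protein-coding genes.

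Most of the YY1 letters lay shortly after the start. In 9 of the 11 members they began after the start, 10 to 36 bp downstream, and in all 9 they read AAGATGGC on the coding strand, as in the Ndufa3 sequence shown above. Among the 9 genes were Sdhc, Ndufc1, Ndufa9, Ndufa3, Ndufs7, Ndufaf8, Ndufa2 and Ndufb8. Over all genes with a promoter region, 52.2% of the YY1 matches began after the start, and 43.8% did so on the coding strand. The letters contain ATG, the usual start codon.

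Other genes of the same pathway, from lists that the symbol rule does not take, were open as well. All 45 respiratory chain and assembly genes on the list had a promoter region, with a median fold of 19.2, from 26.1 at Cox17, a copper chaperone of complex IV, to 8.06 at Sdhaf1, an assembly factor of complex II. All 13 genes of the tricarboxylic acid cycle, which supplies NADH and succinate, had one, with a median of 18.8. Of 18 regulators of mitochondrial genes, 17 had one, with a median of 17.7. The exception was Ppargc1a, the PGC-1 alpha coactivator known from muscle, liver and brown fat. Among the factors whose letters were searched, Esrra had 19.6, Gabpa had 17.4 from the region it shares with Atp5j, Yy1 had 14.0 and Nrf1 had 12.6.

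The members were set beside 3 other groups of widely expressed genes. A promoter region was present at 91.5% of the members, 97.4% of 78 mitochondrial ribosomal protein genes, 95.2% of 84 cytosolic ribosomal protein genes and 100% of 34 constitutive proteasome genes. The median folds were 19.2 in the members, 18.9 in the mitochondrial ribosome, 18.1 in the cytosolic ribosome and 21.3 in the proteasome. The share with a head-to-head partner was 37.2% in the members, 42.3% in the mitochondrial ribosome, 19.05% in the cytosolic ribosome and 23.5% in the proteasome. ETS letters stood in 6.98% of the open members, against 15.8% of the open genes of the mitochondrial ribosome, 18.8% of the cytosolic ribosome and 14.7% of the proteasome. YY1 letters stood in 12.8% of the open members, against 14.5% in the mitochondrial ribosome, 8.75% in the cytosolic ribosome and 17.6% in the proteasome. For NRF1 letters the shares were 11.6% in the members, against 9.21%, 3.75% and 8.82% in the mitochondrial ribosome, the cytosolic ribosome and the proteasome. For SP/KLF letters they were 11.6%, against 18.4%, 12.5% and 17.6% in the same order. Each of these lay below the 23.2% of all genes with a promoter region. The highest summit lay within 150 bp of a coding start at 89.5% of the open members. That share was 84.2% in the mitochondrial ribosome and 94.1% in the proteasome, with the cytosolic ribosome between them. All of these groups lay above the 75.6% of all genes with a promoter region. No test was made between these groups.

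**Figure D5:**
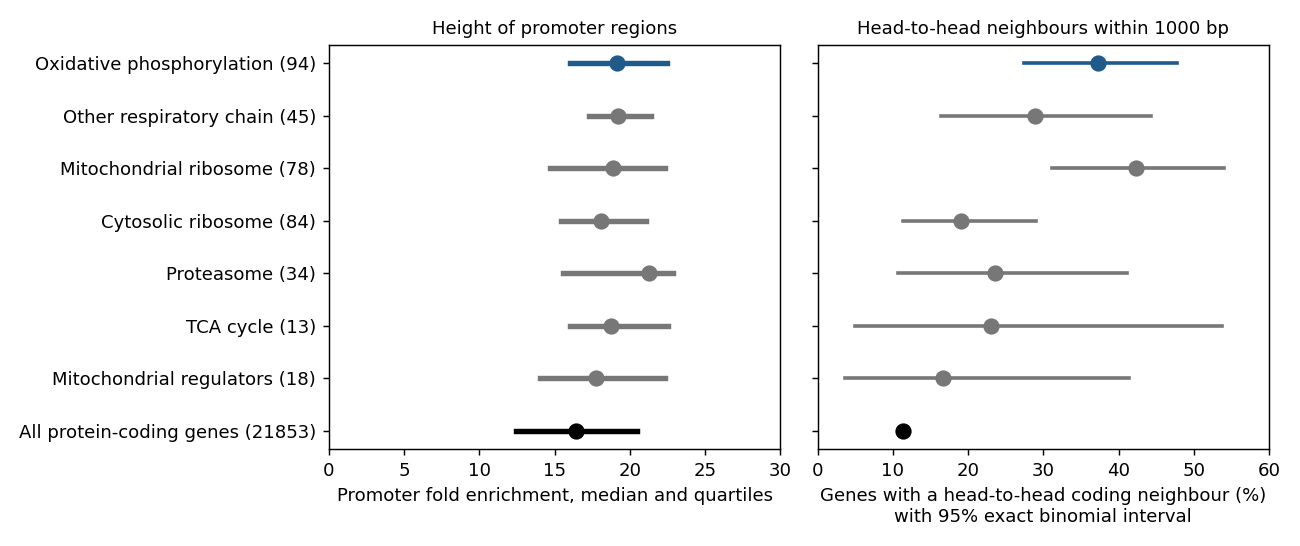
Promoter fold enrichment (left, median as point and quartiles as line) and share of genes with a head-to-head coding neighbour (right, %, with 95% Clopper-Pearson intervals) in the members and other gene groups, with the number of genes in brackets. The members had a median fold of 19.2 and a share of 37.2%, against 16.4 and 11.4% for all protein-coding genes.

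Copies of member genes elsewhere in the genome were checked, since near-identical copies can share reads. Of 9 annotated records named as pseudogenes of members, 8 were processed pseudogenes and had no region at their start or in their body. The ninth, Ndufb1-ps, is annotated as a long noncoding RNA from a bidirectional promoter. It had 1 region, with a fold of 13.3, which also covered the start of Cpsf2.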

How the data were processed

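ATAC-seq peak lists of 2 technical replicates of 1 biological replicate were used. Per the labels and the deposited text files, the authors derived 3 lists on mm10 (pseudoreplicated, IDR-thresholded and IDR-ranked) from 1 filtered alignment. The lists were taken to pool both libraries, since both samples name the same ones. The software for alignment and peak calling, any read shift or filter and the IDR cutoff: not given in the sources used here. Depth is unknown. Each deposited peak has a fold enrichment (a linear ratio over a background that is not stated), a whole-number score, a p-value and a q-value, each as −log10, a summit offset and, in the ranked list, a −log10 IDR. Values are the authors' own and served to describe, rank and filter peaks. Units were read from the column order and the values; 0 columns of per-sample values were left out.

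With Python 3.11.15, pandas 2.3.3, numpy 2.4.6 and scipy 1.17.1, overlapping or touching peaks of the IDR-thresholded list (58138 peaks) were merged into 29415 regions, each with the fold and summit of its highest peak. Genes were those of GENCODE M21 on GRCm38.p6. The start used for motif and CpG windows was the coding start nearest to the highest promoter summit, or the outermost coding start where there was none. The methods were tested on simulated data. No p-value was computed: there was 1 group and 1 biological replicate.

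The genes, lists, motifs and tests were chosen with earlier results of these data known. Named with values were all members without a promoter region, the 3 highest and 2 lowest folds of each complex and of the assembly factors, isoform pairs, complex II, the 5 members with most distal regions (8 with ties), the 5 highest head-to-head members and the 3 highest distal regions. Alternatives were the other lists, the upper 50% of regions by fold, other windows (500 and 2000 bp, or 50 kb), the 5′ end of the gene record alone, and other summit and motif windows. A few genes are counted with their group but not reported here by name.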

Additional observations from a re-analysis of the deposited data

How the results depend on the processing

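Of 60 alternatives, 55 kept their result within the 95% interval of a share or within 1.5 times a count or median. For the motifs these intervals were wide: a RUNX share of 7.45% within 250 bp of the start counted as kept beside 3.19%. The criterion also did not ask whether a share kept its standing against all genes. With the upper 50% of regions by fold, the promoter share of the members was 83.0%, against 91.5% in the main setting. Over all protein-coding genes it was 35.4%, against 49.7% in the main setting. Cox7a1, Cox7b, Cox6c, Ndufb10, Ndufa13, Ndufaf3, Ndufaf6 and Atp5l then had no promoter region. There were 82 distal regions with the pseudoreplicated list, 60 with summits counted singly and 17 with that upper 50%, against 37. AP-1 letters stood within 100 bp of the summit in 1.12% of member promoter regions, against 5.32% of members in the start window. The cause was not tested, apart from the lists' own sizes (52972 regions in the pseudoreplicated list, against 29415). The count of open tissue-restricted isoforms ranged from 0 to 2: Cox6b2 was added by the wider lists and Ndufa4l2 by a window of 2000 bp. With the 5′ end of the gene record alone, 3 further members, among them Atp5d and Cox7a2l, had no promoter region. No paired analysis was possible because there was 1 group, and no replicate could be left out because no list gives values by library. Since depth is unknown, no limit of detection can be given for the isoforms without a promoter region.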

Other observations

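The X chromosome, of which a male mouse has 1 copy, carries 3 members, and all 3 had a promoter region. Ndufb11, an accessory subunit of complex I, had a fold of 18.6, Ndufa1, another, had 13.2, and Cox7b had 7.66. Over the 333 X-linked genes with a promoter region the median was 17.4, against 16.4 over the 10524 autosomal ones. The fold is a ratio over a background that is not stated, and whether copy number bears on it was not tested.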
